A study of Rattus norvegicus with 6 samples.

Results

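Excitation-contraction coupling was followed through 10 genes of gastrocnemius muscle that carry the depolarisation of a muscle fiber to the release of calcium from its internal store. They were taken by symbol from the FPKM table of the 6 rats, where each symbol had a single row, and make up 10 of the 26406 genes listed and 10 of the 10285 genes that entered the test. FPKM counts the mapped fragments of a gene, scaled to the length of its exons and to the size of the library. The study asked how a day of exposure to the antipsychotic drug olanzapine alters the transcripts of this limb muscle. The 3 olanzapine rats (rats 4, 10 and 12; 398, 366 and 400 g) were male Sprague Dawley rats of the outbred stock Crl:SD that received the drug through a venous catheter for 24 h, as 1 mg per 100 g over 0.5 h followed by 0.04 mg per 100 g and hour over 23.5 h. The 3 vehicle rats (rats 3, 9 and 11; 382, 382 and 356 g) were of the same sex and stock and received the vehicle alone, matched in flow and volume. All 6 rats carried venous and arterial catheters, and each library came from a separate rat, so the p-values rest on the spread between animals. Whole muscle was used, and fewer cells of a type and less RNA per cell cannot be told apart in such samples.

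In skeletal muscle the action potential runs into the transverse tubules, where the voltage-gated L-type channel, or dihydropyridine receptor, senses it. Cacna1s encodes the pore and voltage sensor of that channel, Cacnb1 its cytoplasmic beta subunit, Cacng1 its transmembrane gamma subunit and Cacna2d1 its extracellular alpha2delta subunit. The sensor is coupled mechanically to Ryr1, the ryanodine receptor that releases calcium from the sarcoplasmic reticulum, and Stac3 is an adaptor protein required for that coupling. The junctophilins Jph1 and Jph2 hold the tubule and the reticulum together at the triad, Trdn (triadin) anchors the calsequestrin calcium store to the release channel, and Fkbp1a (FKBP12) binds Ryr1 and stabilises its closed state. Mutations of RYR1 and CACNA1S in people underlie malignant hyperthermia, and those of STAC3 a congenital myopathy.

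Slow fiber markers were lower in the olanzapine rats, and the part of fiber type in the values of the coupling genes was not tested. The labelled tissue held its markers, since 6 genes of skeletal fibers summed to 105433 to 147156 FPKM in the olanzapine rats and 82008 to 105593 FPKM in the vehicle rats. The 10 slow fiber markers summed to 2830 to 7295 FPKM in the olanzapine rats and 18924 to 34210 FPKM in the vehicle rats. Of these 10, 9 fell in the olanzapine rats at an adjusted p under 0.05 from limma, against 0.457% of all tested genes. With 1 rat left out that count was 10 without olanzapine rat 4 and 1 without any other single rat, and it was 4 with median-ratio size factors and 1 when all genes were tested without a minimum level. Their sums did not overlap between the groups. Summed fast fiber markers lay at 108703 to 145657 FPKM in the olanzapine rats and 63795 to 83320 FPKM in the vehicle rats. Of these 10 genes, 7 were higher without overlap, against 5.12% of all tested genes, and 0 passed the test. They include the myosin heavy chain Myh4 but not Myh1, the IIx form, which was counted only among the 6 genes of skeletal fibers. Myh1 was lower in the olanzapine rats without overlap and did not pass the test (log2 fold change -0.65 ± 0.21, SE). It averaged 788 ± 89.9 FPKM in the olanzapine rats and 1245 ± 202 FPKM in the vehicle rats (SD, n = 3 each). The paper groups Myh1 with slow or intermediate fiber genes. Myh7, the slow myosin heavy chain, averaged 88.1 ± 75.3 FPKM in the olanzapine rats and 653 ± 102 FPKM in the vehicle rats (SD, n = 3 each). For other cell types, the summed markers of Schwann cells, adipocytes, endothelium, fibroblasts, leukocytes, red cells, satellite cells and smooth muscle overlapped between the groups, and 0 of these genes passed the test. The 5 heart markers summed to 1.43 to 9.88 FPKM in the olanzapine rats and 11.8 to 16.96 FPKM in the vehicle rats, without overlap. Taken singly, each of the 5 overlapped between the groups. Myh6, the highest of them, had 7.24 FPKM in olanzapine rat 4 and 6.84 FPKM in vehicle rat 11. Of the 2 that were tested 0 passed, and Nppa, which defines atrial heart muscle, was listed at 0 in all 6 rats. Read totals do not come with FPKM. Judged from the step size of low values, sequencing depth relative to vehicle rat 3 was 0.742 to 0.915 in the olanzapine rats, 0.673 in vehicle rat 9 and 0.439 in vehicle rat 11.

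None of the 10 coupling genes passed an adjusted p of 0.05 between olanzapine and vehicle rats (limma on log2(FPKM + 1), Benjamini-Hochberg over 10285 genes), where 0.506% of all tested genes passed, 0.0486% higher and 0.457% lower. Before adjustment 0 of 10 had a p under 0.05, against 13.2% of all tested genes. A Poisson likelihood ratio test, run on group sums and blind to the spread between rats, called 2 of the 10 after adjustment, against 7.92% of all tested genes, and 3 of the 10 before adjustment, against 13.9%. The median log2 fold change of the 10 was 0.03, with 6 values above 0 and 4 below it, and that of all tested genes was -0.11. Both medians and the split of signs are without rescaling of the rats. Rescaling the rats by median-ratio size factors moved the median of all genes to 0.03, and it moved the 10 genes upward as well. They then lay at 0.08 for Ryr1, 0.12 for Cacna1s, 0.20 for Cacnb1, 0.56 for Cacng1 and 0.20 for Cacna2d1. Stac3 lay at 0.26, Jph1 at 0.41, Jph2 at -0.03, Trdn at 0.003 and Fkbp1a at 0.44. Without that rescaling, the 95% interval of each of the 10 genes stayed within a 2-fold change in either direction. The lowest bound was -0.94 for Jph2 and the highest 0.89 for Cacng1. With median-ratio size factors the log2 fold change of Cacng1 was 0.56, and intervals are not given for that scaling. The slow fiber markers, in contrast, had a median log2 fold change of -2.56.

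**Figure D1:**
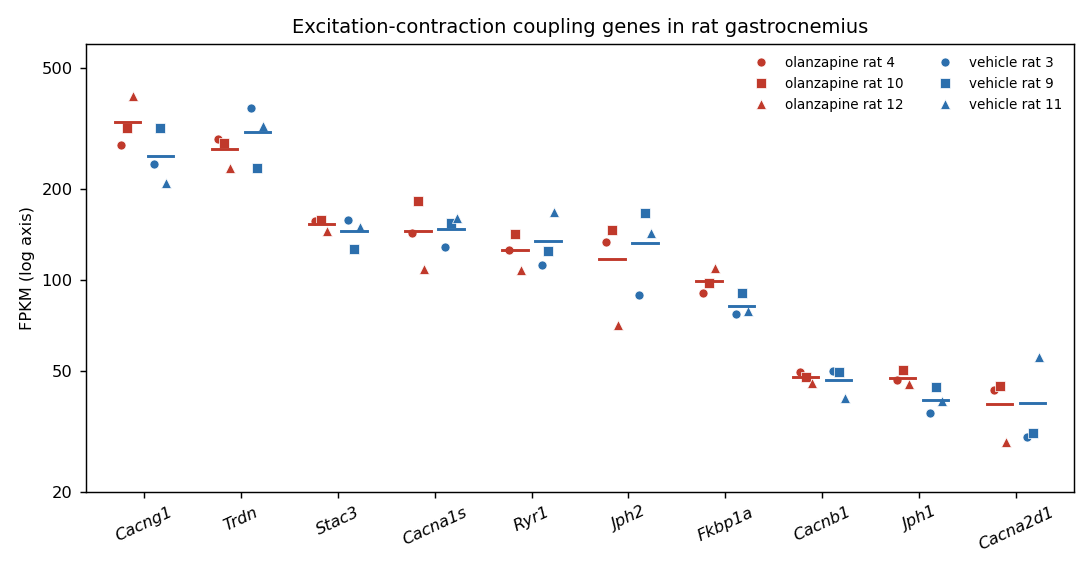
FPKM (log axis) of the 10 coupling genes, ordered by their mean over 6 rats. Each marker is 1 rat, red for olanzapine and blue for vehicle, and each bar is the mean of a group. Cacng1 and Trdn stand at the top, with means of 294 and 289 FPKM, and Cacnb1, Jph1 and Cacna2d1 at the bottom, with means of 39.1 to 47.4 FPKM, and the red and blue points overlap in 8 of the 10 genes.

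All 10 genes were abundant. Their means over 6 rats ran from 39.1 FPKM for Cacna2d1, rank 1455 of 10285 by level, to 294 FPKM for Cacng1, rank 271. The levels formed 3 tiers. Cacng1 (294 FPKM) and Trdn (289 FPKM) led, each above the other in 3 rats. Trdn stood 1.94-fold above Stac3 (149 FPKM), in all 6 rats. Stac3, Cacna1s (146 FPKM), Ryr1 (130 FPKM), Jph2 (125 FPKM) and Fkbp1a (90.8 FPKM) followed, and no neighbours among them kept 1 order in all 6 rats. Fkbp1a in turn stood 1.92-fold above Cacnb1 (47.4 FPKM) in all 6 rats, and Cacnb1, Jph1 (43.9 FPKM) and Cacna2d1 (39.1 FPKM) made up the lowest tier, where each neighbouring pair kept its order in 5 of 6 rats. The spread over the 6 rats, as highest over lowest value, ran from 1.22 for Cacnb1 to 2.32 for Jph2.

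The release channel and its voltage sensor had close group means. Ryr1 (ENSRNOG00000020557, chr1:89151995-89241192 in Rn5) had 126, 142 and 108 FPKM in olanzapine rats 4, 10 and 12 and 112, 124 and 167 FPKM in vehicle rats 3, 9 and 11. The lowest value belonged to olanzapine rat 12 and the highest to vehicle rat 11, and the groups overlapped. The means were 125 ± 16.9 FPKM in the olanzapine rats and 135 ± 29.0 FPKM in the vehicle rats (SD, n = 3 each), a log2 fold change of -0.09 ± 0.20 (SE; limma adjusted p = 0.852), and the 95% interval ran from 0.678-fold to 1.30-fold. Cacna1s (ENSRNOG00000046231, chr13:57945478-58018357) had 143, 182 and 109 FPKM in olanzapine rats 4, 10 and 12 and 129, 154 and 160 FPKM in vehicle rats 3, 9 and 11. Both its extremes were olanzapine rats, rat 12 low and rat 10 high, and all vehicle values fell between them. Its log2 fold change was -0.05 ± 0.22 (SE; limma adjusted p = 0.926), and its interval ran from 0.683-fold to 1.36-fold. Neither sign was stable, since size factors gave 0.08 for Ryr1 and 0.12 for Cacna1s.

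Of the other subunits of the L-type channel, the beta subunit varied least and the gamma subunit had the largest difference of the 10 genes. Cacnb1 (ENSRNOG00000004518, chr10:85742630-85763137) had 49.7, 47.9 and 45.9 FPKM in olanzapine rats 4, 10 and 12 and 50.1, 49.9 and 40.9 FPKM in vehicle rats 3, 9 and 11. The 3 olanzapine rats lay inside the range of the vehicle rats, and the coefficient of variation was 3.98% in the olanzapine rats and 11.1% in the vehicle rats. The log2 fold change was 0.03 ± 0.16 (SE; limma adjusted p = 0.942), and the interval ran from 0.792-fold to 1.32-fold. Cacng1 (ENSRNOG00000003245, chr10:95655313-95668486) had 278, 317 and 404 FPKM in olanzapine rats 4, 10 and 12 and 242, 317 and 209 FPKM in vehicle rats 3, 9 and 11. Olanzapine rat 12 was highest and vehicle rat 11 lowest, while olanzapine rat 10 and vehicle rat 9 were level, so the groups overlapped. The means of 333 ± 64.1 FPKM in the olanzapine rats and 256 ± 55.4 FPKM in the vehicle rats (SD, n = 3 each) gave a log2 fold change of 0.38 ± 0.22 (SE; limma adjusted p = 0.476), with an interval from 0.916-fold to 1.86-fold. The Poisson test called Cacng1 higher (adjusted p = 5.24e-05), whereas without olanzapine rat 12 the log2 fold change was 0.24, and with 1 rat left out the adjusted p from limma lay between 0.392 and 0.829. Cacna2d1 (ENSRNOG00000033531, chr4:15684839-16105448), the longest locus of the 10, had 43.3, 44.6 and 29.2 FPKM in olanzapine rats 4, 10 and 12 and 30.3, 31.3 and 56.0 FPKM in vehicle rats 3, 9 and 11. A single rat of each group stood apart from its companions, olanzapine rat 12 below and vehicle rat 11 above. The log2 fold change was 0.03 ± 0.27 (SE; limma adjusted p = 0.970) with an interval from 0.660-fold to 1.57-fold, and it was 0.31 without vehicle rat 11.

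The adaptor Stac3 (ENSRNOG00000008050, chr7:70981251-70988655) had 156, 157 and 145 FPKM in olanzapine rats 4, 10 and 12 and 158, 126 and 149.8 FPKM in vehicle rats 3, 9 and 11. Its values lay close together except for vehicle rat 9, and the vehicle range enclosed all olanzapine rats. The log2 fold change was 0.08 ± 0.17 (SE; limma adjusted p = 0.838), and the interval ran from 0.816-fold to 1.38-fold.

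The junctophilins, which join the tubule to the reticulum, had log2 fold changes of opposite sign, and neither passed the test. Jph1 (ENSRNOG00000006110, chr5:1413720-1507659) had 46.9, 50.5 and 45.5 FPKM in olanzapine rats 4, 10 and 12 and 36.5, 44.3 and 39.8 FPKM in vehicle rats 3, 9 and 11. Every olanzapine rat was above every vehicle rat, with 1.21 FPKM between olanzapine rat 12 and vehicle rat 9. The means of 47.6 ± 2.55 FPKM in the olanzapine rats and 40.2 ± 3.91 FPKM in the vehicle rats (SD, n = 3 each) gave a log2 fold change of 0.24 ± 0.16 (SE; limma adjusted p = 0.514), with an interval from 0.921-fold to 1.52-fold. Jph2 (ENSRNOG00000008170, chr3:165905615-165968629) had 134, 146 and 71.3 FPKM in olanzapine rats 4, 10 and 12 and 89.0, 166 and 143 FPKM in vehicle rats 3, 9 and 11. Olanzapine rat 12 and vehicle rat 3 were low and the other 4 rats lay between 134 and 166 FPKM. The log2 fold change of -0.20 ± 0.32 (SE; limma adjusted p = 0.799) had the largest standard error of the 10 genes, with an interval of 0.522-fold to 1.45-fold, and it was 0.12 without olanzapine rat 12. As a share of the summed FPKM of both junctophilins, Jph1 took 26.0%, 25.7% and 39.0% in olanzapine rats 4, 10 and 12 and 29.1%, 21.1% and 21.7% in vehicle rats 3, 9 and 11 (exact 2-sided permutation p = 0.3, with 0.1 as the smallest value that 3 rats in each group can give).

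Triadin and FKBP12 act on the release channel from opposite faces of the membrane. Trdn (ENSRNOG00000012609, chr1:27091813-27300021) had 292, 283 and 234 FPKM in olanzapine rats 4, 10 and 12 and 370 FPKM in vehicle rat 3, 233 FPKM in vehicle rat 9 and 322 FPKM in vehicle rat 11. The vehicle rats held both the highest and the lowest value. The log2 fold change was -0.17 ± 0.22 (SE; limma adjusted p = 0.729) with an interval from 0.631-fold to 1.25-fold. Trdn was the other gene that the Poisson test called, as lower (adjusted p = 0.00694), and without vehicle rat 3 its log2 fold change from limma was -0.03. Fkbp1a (ENSRNOG00000008822, chr3:153399454-153418856) had 90.7, 98.02 and 109 FPKM in olanzapine rats 4, 10 and 12 and 77.0, 90.6 and 79.3 FPKM in vehicle rats 3, 9 and 11. The groups touched without overlap, since olanzapine rat 4 exceeded vehicle rat 9 by 0.0053 FPKM. The means of 99.3 ± 9.36 FPKM in the olanzapine rats and 82.3 ± 7.30 FPKM in the vehicle rats (SD, n = 3 each) gave a log2 fold change of 0.27 ± 0.16 (SE; limma adjusted p = 0.493) and an interval from 0.929-fold to 1.56-fold.

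Jph1 and Fkbp1a were thus the 2 of 10 genes whose groups did not overlap, both with the olanzapine rats higher. Among all tested genes 19.7% had groups without overlap, 5.12% higher and 14.6% lower in the olanzapine rats.

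**Figure D2:**
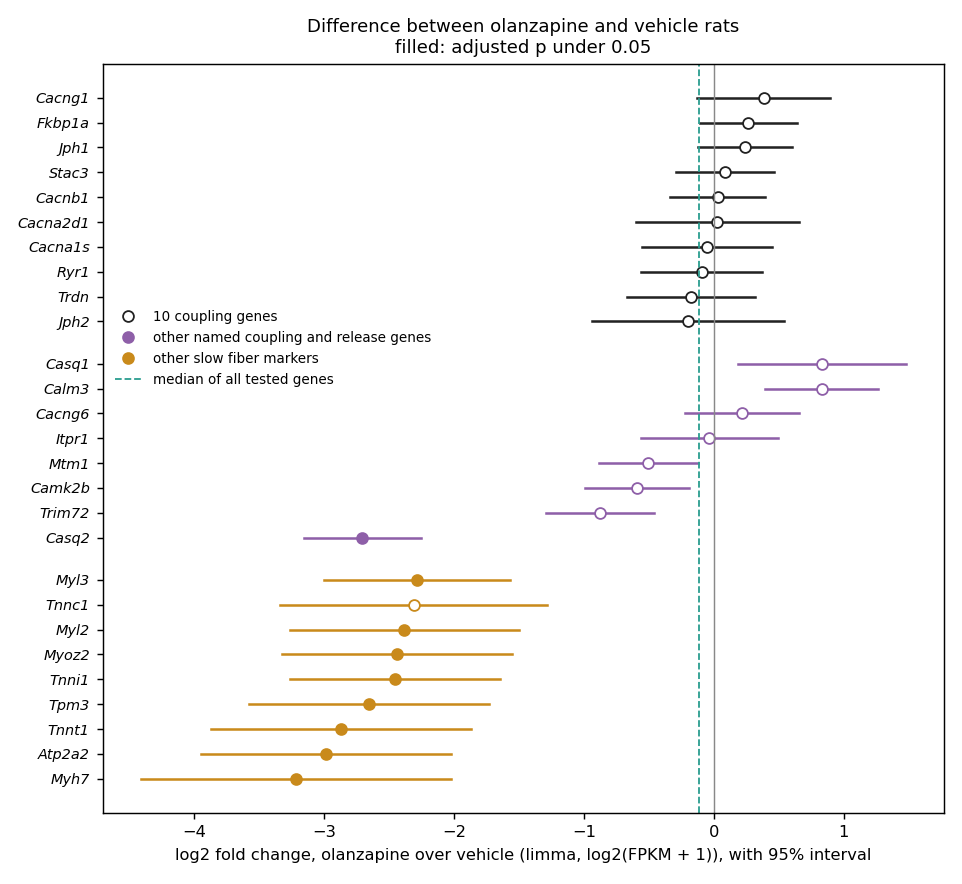
Log2 fold change of olanzapine over vehicle with its 95% interval, from limma on log2(FPKM + 1), for the 10 coupling genes (black), other named genes of coupling and release (purple) and the slow fiber markers other than Casq2 (orange). Filled points passed an adjusted p of 0.05 and the dashed line marks the median of all tested genes. The intervals of the 10 coupling genes all include 0, from a lowest bound of -0.94 to a highest bound of 0.89, while Casq2 lies at -2.70 among the slow fiber markers.

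The extreme values of the 10 genes were spread over 5 rats. Olanzapine rat 12 was lowest of the 6 rats in 4 of the 10 genes (Ryr1, Cacna1s, Cacna2d1 and Jph2) and highest in 2 (Cacng1 and Fkbp1a). Vehicle rat 11 was lowest in 2 genes (Cacnb1 and Cacng1) and highest in 2 (Ryr1 and Cacna2d1). Vehicle rat 3 was lowest in 2 genes (Jph1 and Fkbp1a) and highest in 3 (Cacnb1, Stac3 and Trdn), vehicle rat 9 was lowest in 2 and highest in 1, and olanzapine rat 10 was highest in 2. In olanzapine rat 12 and vehicle rat 11 the values over all tested genes varied with the length of the locus, and the coupling genes followed that in part. Of the 6 genes whose locus spans 50000 bases or more, olanzapine rat 12 lay below both other olanzapine rats in 6, and of the 4 shorter genes it lay below both in 2 and above both in 2. Against their means over 6 rats, Ryr1, Cacna1s, Jph2, Trdn and Cacna2d1 were low in olanzapine rat 12 and high in vehicle rat 11, while Jph1, also a long gene, deviated the other way, with log2 deviations of 0.06 in olanzapine rat 12 and -0.13 in vehicle rat 11. Of the 4 shorter genes, all spanning 5000 to 50000 bases, Cacng1 and Fkbp1a were high in olanzapine rat 12 and low in vehicle rat 11. Cacnb1 lay at -0.04 and -0.21 and Stac3 at -0.03 and 0.01 in these rats. Over all tested genes, the median deviation of olanzapine rat 12 from the gene's mean over 6 rats was 0.08 on the log2 scale for the 2308 loci under 5000 bases and -0.26 for the 2073 loci of 50000 bases or more, and that of vehicle rat 11 was -0.07 and 0.23 in the same classes. For the 5904 loci of 5000 to 50000 bases, the class of the 4 shorter coupling genes, it was -0.15 in olanzapine rat 12 and 0.08 in vehicle rat 11. Cacng1 and Fkbp1a thus deviated against the median of their own class in both rats. The median log2 fold change was 0.04 under 5000 bases, -0.12 from 5000 to 50000 bases and -0.21 at 50000 bases or more. With the trend on locus span removed, an alternative chosen after seeing the data, 0 of the 10 genes passed the test, although the log2 fold change of Jph1 became 0.46, that of Cacna2d1 0.28 and that of Cacnb1 0.17. With both rats left out, also chosen after seeing the data, 0 passed as well, with 0.10 for Cacng1 and 0.50 for Cacna2d1. The part of locus length in the single differences was not tested.

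**Figure D3:**
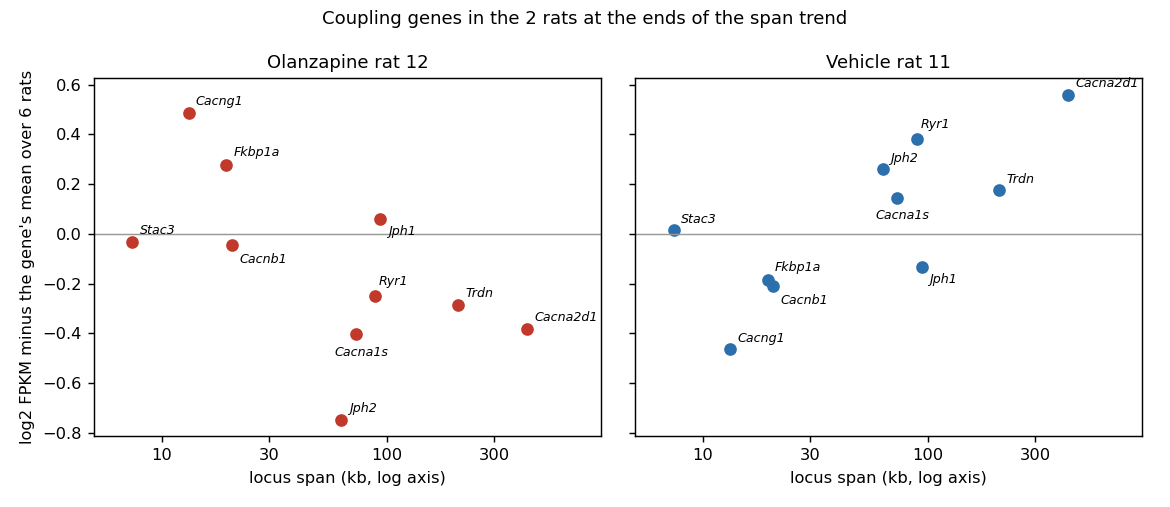
Deviation of each coupling gene from its mean over 6 rats (log2 FPKM) against the span of its locus in kilobases (log axis), for olanzapine rat 12 (left, red) and vehicle rat 11 (right, blue). Of the 6 loci of 50 kb or more, 5 lie below 0 in olanzapine rat 12 and above 0 in vehicle rat 11, and Jph1 lies on the other side in both. Of the 4 shorter loci, Cacng1 and Fkbp1a lie above 0 in olanzapine rat 12 and below 0 in vehicle rat 11, Cacnb1 lies below 0 in both, and Stac3 lies close to 0.

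Within each rat the genes were also compared with Ryr1, which leaves out any factor common to all genes of a library. A trend with locus length is not common to all genes and can remain in these ratios. Ryr1 itself lay at -0.25 in olanzapine rat 12 and 0.38 in vehicle rat 11 against its log2 mean over 6 rats. Cacna1s stood at 1.14, 1.28 and 1.01 times the FPKM of Ryr1 in olanzapine rats 4, 10 and 12 and at 1.15, 1.24 and 0.953 times it in vehicle rats 3, 9 and 11. The sensor and the release channel thus stayed within 0.953 to 1.28 times each other in all 6 rats, with overlap between the groups. Cacng1 stood at 2.21, 2.23 and 3.74 times Ryr1 in olanzapine rats 4, 10 and 12 and at 2.15, 2.55 and 1.25 times it in vehicle rats 3, 9 and 11 (exact 2-sided permutation p = 0.4). The 9 ratios of a coupling gene to Ryr1 all overlapped between the groups, and their p-values ran from 0.2 for Jph1 to 1 for Trdn. Over the 25 ratios and shares computed, the smallest p was 0.1, the smallest possible, with an adjusted p of 0.625.

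**Figure D4:**
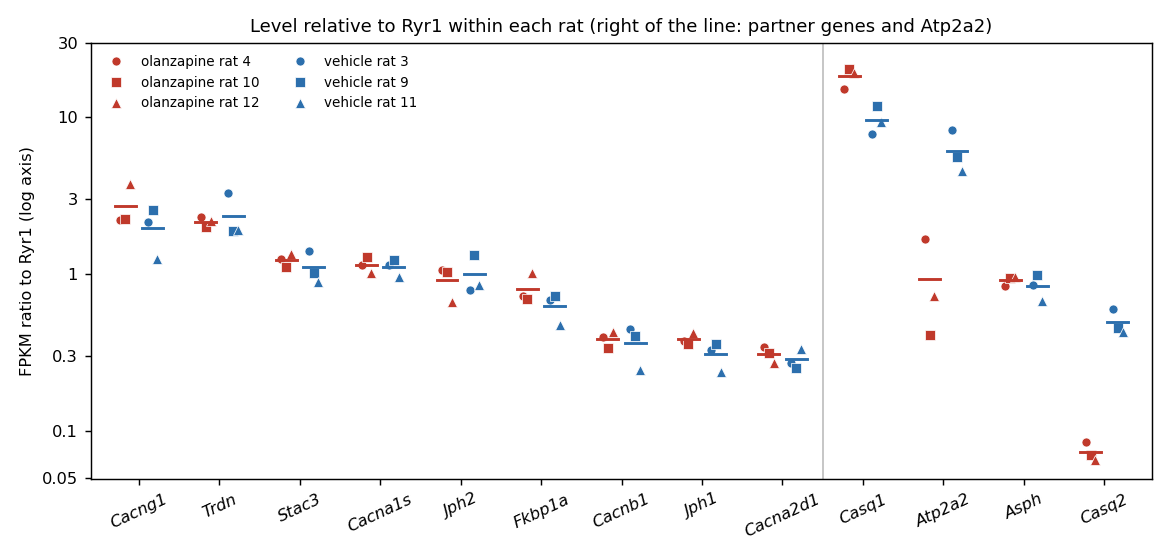
FPKM of each gene divided by that of Ryr1 in the same rat (log axis). Each marker is 1 rat, red for olanzapine and blue for vehicle, with bars at the group means. The 9 coupling genes left of the line overlap between the groups, while right of it Casq1 (means 18.3 in olanzapine and 9.68 in vehicle rats) is higher and Atp2a2 (0.935 and 6.12) and Casq2 (0.0732 and 0.492) are lower in every olanzapine rat.

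The paralogs of these genes were mostly far lower in both groups, with Cacng6 as the exception. Of 26 paralogs listed, 22 had a mean under 1 FPKM and were not tested, 4 of them listed at 0 in all rats, and the lowest coupling gene was 39.9-fold above the highest of those 22 by mean level. Ryr1 took 99.9% ± 0.0535 of the FPKM of the 3 ryanodine receptors in the olanzapine rats and 99.8% ± 0.0447 in the vehicle rats (SD, n = 3 each), and Ryr3, the next of the family, had at most 0.253 FPKM. Cacna1s took 99.8% in both groups of its sum with the cardiac and neuronal pores Cacna1c and Cacna1d. Cacnb1 took 97.6% ± 0.826 in the olanzapine rats and 97.2% ± 1.30 in the vehicle rats of the 4 beta subunits, and Stac3 took 99.8% of the 3 Stac genes in both groups. Cacna2d1 took 99.4%, 99.4% and 99.9% of the 4 alpha2delta subunits in olanzapine rats 4, 10 and 12 and 99.2%, 99.3% and 99.2% in vehicle rats 3, 9 and 11, without overlap (exact 2-sided permutation p = 0.1). That share turns on values near 0, since Cacna2d2, Cacna2d3 and Cacna2d4 had means of 0.0727, 0.151 and 0.0268 FPKM. With 1 added to each FPKM the exact 2-sided permutation p was 0.9. Fkbp1b, which encodes the FKBP12.6 that binds the cardiac ryanodine receptor, was listed at 0 in olanzapine rat 12 and vehicle rat 9 and at 3.01 FPKM in vehicle rat 11, and Fkbp1a took 99.2% ± 0.791 of the pair in the olanzapine rats and 98.5% ± 1.91 in the vehicle rats.

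Among the paralogs, Cacng6, a gamma subunit, reached the range of the lowest coupling genes. It had 37.9, 45.7 and 34.4 FPKM in olanzapine rats 4, 10 and 12 and 40.4, 28.8 and 32.3 FPKM in vehicle rats 3, 9 and 11, with overlap (log2 fold change 0.22 ± 0.19, SE; limma adjusted p = 0.624). Cacng1 took 89.2% ± 2.59 of the sum of Cacng1 and Cacng6 in the olanzapine rats and 88.0% ± 3.23 in the vehicle rats (SD, n = 3 each; exact 2-sided permutation p = 0.5). Itpr1, an inositol trisphosphate receptor that releases calcium outside of the coupling mechanism, had 0.831 to 1.63 FPKM in the olanzapine rats and 0.912 to 1.25 FPKM in the vehicle rats (log2 fold change -0.03, limma adjusted p = 0.955). Its sign turned with median-ratio size factors, which gave 0.05. The highest paralogs of the other families, Cacna1h, Cacnb3, Cacna2d3, Stac and Jph3, had means under 1 FPKM.

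**Figure D5:**
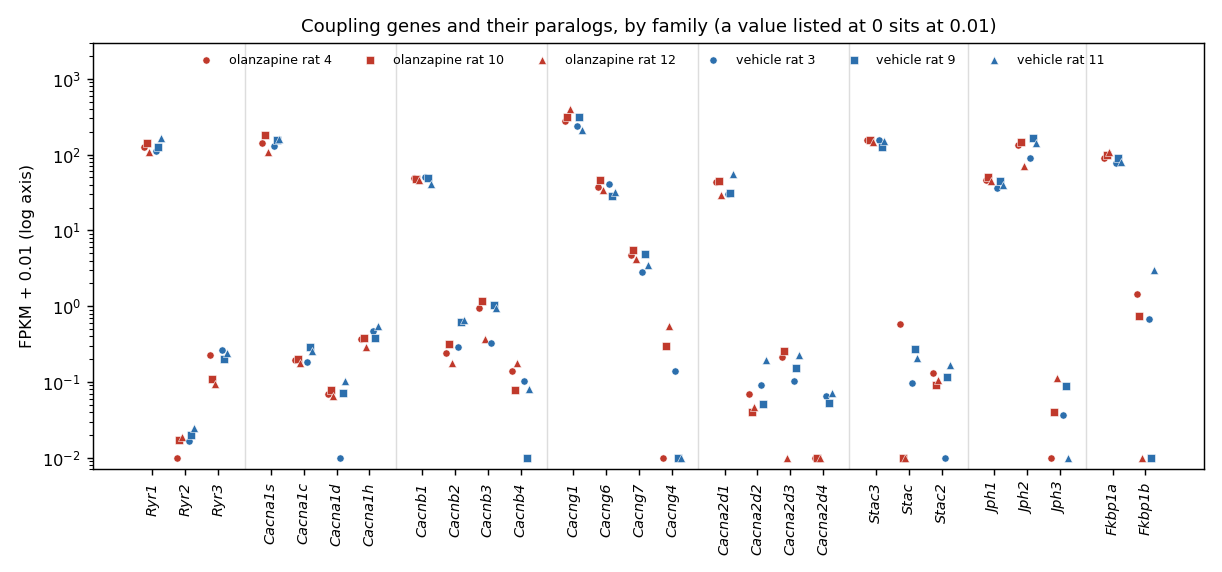
FPKM + 0.01 (log axis) of the coupling genes and of paralogs in 8 families, with 1 marker per rat, red for olanzapine and blue for vehicle. A single skeletal muscle gene dominates each family except the gamma subunits, where Cacng6 follows Cacng1 at 28.8 to 45.7 FPKM, and the junctophilins, where Jph1 and Jph2 are both abundant.

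The other proteins of the triad and of calcium release were read from 22 further genes, all of them tested. A single one fell at an adjusted p under 0.05 in the olanzapine rats, 0 rose and 21 did not pass. Of all tested genes 0.457% fell and 0.0486% rose. The median log2 fold change of the 22 was -0.05. Without adjustment, 2 were higher and 4 lower at p under 0.05, against 13.2% of all tested genes in either direction. The gene that fell was Casq2, the calsequestrin of slow fibers and heart, which buffers calcium inside the reticulum beside the release channel. It had 10.6, 9.90 and 7.06 FPKM in olanzapine rats 4, 10 and 12 and 67.0, 56.4 and 71.4 FPKM in vehicle rats 3, 9 and 11. The groups lay far apart, at a log2 fold change of -2.70 ± 0.20 (SE; limma adjusted p = 0.00137), and the call held in each of the 17 alternative settings. Casq2 is itself among the slow fiber markers given above.

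Casq1, the calsequestrin of fast fibers and the main calcium buffer of the store, had 1898, 2899 and 2087 FPKM in olanzapine rats 4, 10 and 12 and 874, 1480 and 1568 FPKM in vehicle rats 3, 9 and 11. Every olanzapine rat was above every vehicle rat, but the difference of 0.83 ± 0.28 on the log2 scale did not pass (SE; limma adjusted p = 0.282). Relative to Ryr1 in the same rat, Casq1 stood at 15.1, 20.4 and 19.3 in olanzapine rats 4, 10 and 12 and at 7.78, 11.9 and 9.36 in vehicle rats 3, 9 and 11. Casq2 over Ryr1 was 0.0845, 0.0698 and 0.0654 in olanzapine rats 4, 10 and 12 and 0.596, 0.453 and 0.426 in vehicle rats 3, 9 and 11. Both ratios separated the groups (exact 2-sided permutation p = 0.1 for each), and so did that of Atp2a2, the slow fiber pump that returns calcium to the store, at 0.935 ± 0.659 in the olanzapine rats and 6.12 ± 1.93 in the vehicle rats (SD, n = 3 each). Casq1 is itself in the fast fiber marker sum, and Casq2 and Atp2a2 are in the slow one, so the sums and these ratios share genes. The part of fiber type in the ratios was not tested.

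Of the 22 genes, 2 were higher and 4 lower in the olanzapine rats without overlap, against 5.12% and 14.6% of all tested genes. Beside Casq1 and Casq2, another 4 had groups without overlap and missed the threshold. Calm3, one of the genes for the calcium sensor calmodulin that binds Ryr1, had 322, 329 and 377 FPKM in olanzapine rats 4, 10 and 12 and 202, 222 and 157 FPKM in vehicle rats 3, 9 and 11, all olanzapine rats being higher (log2 fold change 0.83 ± 0.19, SE; limma adjusted p = 0.139). Trim72, or mitsugumin 53, a protein of membrane repair, had 88.7, 81.0 and 80.1 FPKM in olanzapine rats 4, 10 and 12 and 139, 137 and 189 FPKM in vehicle rats 3, 9 and 11, all olanzapine rats being lower (log2 fold change -0.88 ± 0.18, SE; limma adjusted p = 0.105). Camk2b, a calmodulin-dependent kinase, lay at 34.4 to 47.1 FPKM in the olanzapine rats and 59.1 to 67.8 FPKM in the vehicle rats (log2 fold change -0.59, limma adjusted p = 0.237). Mtm1 is the symbol of myotubularin, a phosphoinositide phosphatase that is mutated in a centronuclear myopathy. The row of that symbol lay at 12.9 to 16.0 FPKM in the olanzapine rats and 19.0 to 23.0 FPKM in the vehicle rats (log2 fold change -0.50, limma adjusted p = 0.267). Its locus is chr6:28722723-28736837 in Rn5, and whether that locus is the gene of the myopathy was not tested. The other triad genes, among them the junctional proteins Asph, Jsrp1, Hrc and Srl, the counter-ion channels Tmem38a and Tmem38b and the tubule protein Bin1, had groups that overlapped.

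The sequence just before the transcription start was at hand from RefSeq (assembly GRCr8, a later build than Rn5) for 7 of the 10 genes, namely Ryr1, Cacna1s, Cacna2d1, Stac3, Jph2, Trdn and Fkbp1a. The 250 bases upstream were searched on both strands for the E-box CANNTG, the motif of the myogenic factors of the MyoD family, and for its form CAGCTG, which is contained in it. CAGCTG stood in 3 of the 7 (Cacna1s, Stac3 and Fkbp1a, with 2 copies each) and in 11.9% of 27457 promoters of the same length, while CANNTG stood in 4 of the 7 and in 65.2% of all. Of other motifs, CATTCC, bound by TEAD factors, stood in 1 of the 7 and in 11.8% of all, TATAAA in 1 of the 7 (Cacna1s) and in 13.1% of all, and CCGCCC, a core of Sp1 sites, in 3 of the 7 and in 32.4% of all. A match is a description of these letters only. The voltage sensor, its adaptor and the release channel are shown, as 3 of the parts of the coupling complex. They are given 5′ to 3′ on the strand of the gene, with capitals at each CANNTG (Cacna1s at chr13:50045418-50045667, plus strand; Stac3 at chr7:65228225-65228474, plus strand; Ryr1 at chr1:93551306-93551555, minus strand).
Cacna1s: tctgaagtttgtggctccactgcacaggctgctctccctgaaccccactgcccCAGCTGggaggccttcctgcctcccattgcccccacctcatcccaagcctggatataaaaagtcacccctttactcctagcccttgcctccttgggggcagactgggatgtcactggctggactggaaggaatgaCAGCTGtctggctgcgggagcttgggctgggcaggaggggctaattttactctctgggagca
Stac3: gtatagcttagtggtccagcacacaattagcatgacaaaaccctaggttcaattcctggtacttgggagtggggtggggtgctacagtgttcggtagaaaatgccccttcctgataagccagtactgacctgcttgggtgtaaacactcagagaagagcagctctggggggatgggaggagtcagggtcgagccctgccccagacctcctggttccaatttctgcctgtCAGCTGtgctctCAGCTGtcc
Ryr1: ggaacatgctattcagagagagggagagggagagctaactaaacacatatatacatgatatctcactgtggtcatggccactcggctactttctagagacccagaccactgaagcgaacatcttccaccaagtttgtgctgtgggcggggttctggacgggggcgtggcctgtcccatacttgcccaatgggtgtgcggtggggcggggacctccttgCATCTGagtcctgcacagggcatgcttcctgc

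Cacna1s and Stac3 each held CAGCTG at 2 places, in Stac3 both close to the start, and Ryr1 held a single E-box of another form. The base composition differed as well, at 59.2% G and C in Cacna1s, 54.0% in Stac3 and 55.6% in Ryr1, with 52.0% as the median of all promoters. The FPKM of these 3 genes overlapped between olanzapine and vehicle rats, as given above.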

How the data were processed

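Gastrocnemius mRNA of 3 olanzapine and 3 vehicle rats was sequenced by the authors as TruSeq v2 libraries with 50 single-end cycles, 6 libraries in a lane. Per the submitters' notes and methods, reads were handled with CASAVA 1.8.2 and aligned to Rn5 (Rnor_5.0) with TopHat 2.0.9, and the authors computed the deposited FPKM with Cufflinks 2.2.1. Only uniquely mapped reads were used, which leaves out reads that match several near-identical copies, such as those of calmodulin. Columns of group means, errors, fold changes and p flags in the deposited table are the authors' comparisons and were not used.

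Genes averaging 1 FPKM or more over the 6 rats were tested with limma 3.58.1 (R 4.3.3) on log2(FPKM + 1) with a variance trend, with Benjamini-Hochberg adjustment over all 10285. Fold changes on this scale understate those of low genes. On simulated data with 200 changed genes the fit recovered 89% at a log2 change of 2 and 99% at 3 for this comparison. Smaller changes, of the size seen in the 10 coupling genes, were not simulated. Ratios and shares within a rat were compared with an exact permutation test. Depth is unknown beyond the relative values given, and no interval for counting error was computed. Alternatives were a pseudocount of 0.1, no filter, a filter at 10 FPKM, genes at 0 left out, median-ratio size factors, equal totals without the 50 highest genes, no variance trend, a Poisson likelihood ratio test of the kind the authors ran, each rat left out, all rows of a symbol summed, and 2 settings added after seeing the data. The members and lists were chosen with earlier results of these data known. Named were all 10 members and, of the other 48 genes listed for coupling and release, those past the threshold, up to 8 of the rest without overlap and the highest paralog of each family. Promoter sequences came from RefSeq (GRCr8), and Python 3.11.15, pandas 2.3.3, scipy 1.17.1 and matplotlib 3.10.9 were used.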

Additional observations from a re-analysis of the deposited data

How the results depend on the processing

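The count of 0 coupling genes past the threshold was the same in 16 of 17 alternatives and 2 with the Poisson test, which has no term for the spread between rats. The count of 1 among the other genes of coupling and release was 10 with that test. Over all genes the count of 52 was 27 without the filter, 102 on genes above 0 in all rats, 31 with median-ratio size factors, 815 with the Poisson test, 13 to 56 with 1 rat left out, and 10 with olanzapine rat 12 and vehicle rat 11 left out together. The cause was not tested.

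Of 170 values of the 10 genes under alternatives, 24 turned in sign, none of them past the threshold. With median-ratio size factors the log2 fold change was 0.081 for Ryr1, 0.12 for Cacna1s, 0.0030 for Trdn and 0.050 for Itpr1. With the Poisson test it was -0.026 for Cacnb1 and -0.058 for Cacna2d1. With olanzapine rat 12 and vehicle rat 11 left out together it was 0.17 for Ryr1, 0.19 for Cacna1s, -0.034 for Cacnb1, 0.20 for Jph2 and 0.092 for Itpr1. With the trend on locus span removed it was 0.12 for Ryr1, 0.15 for Cacna1s, 0.0025 for Jph2, 0.067 for Trdn and 0.22 for Itpr1. Without a change of sign, removing that trend also moved Jph1 to 0.46, Cacna2d1 to 0.28 and Cacnb1 to 0.17, and leaving out both rats moved Cacng1 to 0.10 and Cacna2d1 to 0.50. With 1 rat left out it ran from -0.21 to 0.073 for Ryr1, -0.23 to 0.13 for Cacna1s, -0.063 to 0.080 for Cacnb1, -0.13 to 0.31 for Cacna2d1, -0.0095 to 0.15 for Stac3, -0.46 to 0.12 for Jph2 and -0.21 to 0.055 for Itpr1, while Cacng1, Jph1, Fkbp1a and Trdn kept their sign. Of 200 ratios and shares under alternatives, 2 moved by at least 1 SD, both with 1 added to each FPKM. No paired analysis was made, because the labels do not say whether rats of the 2 groups were run in pairs.

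With 3 rats in a group no exact permutation test can reach 0.05, and the intervals of the 10 genes, without rescaling of the rats, still hold changes between -0.94 and 0.89 on the log2 scale.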
